A study of Mus musculus with 18 samples.

Results

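The hemibrains of mice homozygous for human APOE4 were compared with those of mice homozygous for human APOE3. The comparison takes in 12 of the 18 libraries in the series, namely the columns of the raw count table whose genotype label is APOE4/APOE4 (6 mice) and those whose label is APOE3/APOE3 (6 mice). Each genotype had 3 females and 3 males, all of them 12 months old, on the C57bl/6 strain, and each mouse gave 1 polyA RNA library from frozen hemibrain, which is one side of the brain. The remaining 6 libraries, from APOE2/APOE2 mice, shared the estimate of spread between mice, and their levels are given for a few genes. All groups are targeted-replacement mice, in which a human allele takes the place of the mouse Apoe gene, so no group was wild type. The labels do not say whether the mice of a genotype shared parents or a cage, and the p-values measure the spread between these mice.

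Apolipoprotein E is the main lipid carrier of the brain. Astrocytes secrete it, and microglia also make it when activated, as particles that deliver cholesterol and phospholipid to other cells through lipoprotein receptors. APOE4 and APOE3 differ by a single residue, which is arginine in APOE4 and cysteine in APOE3. APOE4 is the strongest common genetic risk factor for late-onset Alzheimer's disease and is known for poorer lipidation, altered receptor recycling in endosomes and altered glial lipid handling, while APOE3 is the common allele.

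Library totals ran from 48841442 to 52761314 counts in APOE4 and from 43818967 to 50382463 counts in APOE3. Levels below are CPM, a gene's share of the library's counts scaled with TMM factors, and 3 CPM values in a row are the lowest, the median and the highest of the 6 mice. Summed levels of gene lists and of copies are the exception and are CPM without TMM factors. Those factors ran from 0.9777 to 1.025 in these 12 libraries. Sex labels fitted the counts: Xist, which is made from the inactive X chromosome, had 832 to 1110 CPM in the 6 females and 0.595 to 1.93 CPM in the 6 males. On the second principal component of log2 CPM over these 12 libraries, with 16.4% of the variance, the APOE4 mice lay between 1.88 and 24.2 and the APOE3 mice between -15.8 and -9.31. The first component, with 18.5%, separated females from males. Reads on the mouse Apoe entry, which holds only reads aligned to the mouse reference and so does not measure the human transcript, stood at 40.0, 43.8 and 54.9 CPM in APOE4, against 36.6, 42.8 and 45.1 CPM in APOE3. The 2 groups overlapped (edgeR adjusted p = 0.825), and this entry does not check the isoform labels.

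Of 18891 genes tested, 146 were called at an adjusted p under 0.05, which is 0.773% of all genes tested. A higher level in APOE4 was called for 81 genes (0.429%) and a lower level for 65 genes (0.344%), and 1658 genes had an unadjusted p under 0.05. The called genes fell into a small group with large changes, many of them scarce in whole brain, and a larger group of abundant genes with small ones. Their median absolute log2 fold change was 0.46, and 43 of the 146 changed by more than 2-fold. For 122 of the 146 the 6 APOE4 values and the 6 APOE3 values did not overlap, as was true of 1.48% of all genes tested. In the deposited table of the authors' own DESeq2 comparison, where 253 genes passed the same threshold, all 146 passed with the same direction. The median log2 fold change over all genes tested was 0.0042.

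**Figure D1:**
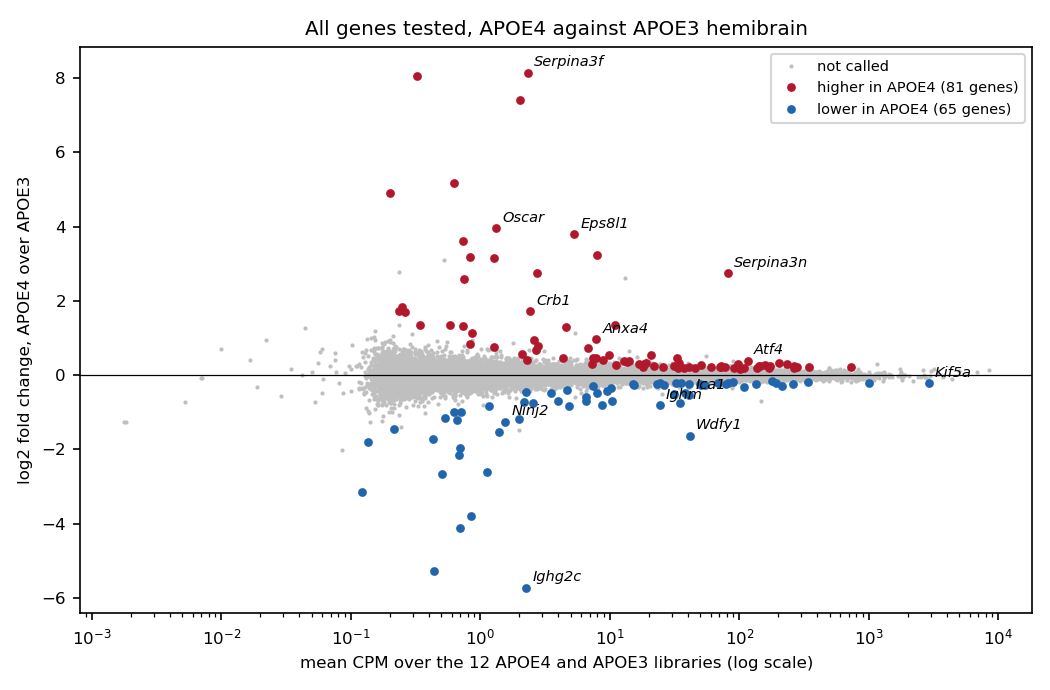
Log2 fold change of APOE4 over APOE3 (vertical axis) against the mean CPM over the 12 libraries (horizontal axis, log scale) for each of the 18891 genes tested. Red points are the 81 genes called higher in APOE4 and blue points the 65 called lower. Large changes lie mostly at low CPM, with Serpina3n and Wdfy1 as exceptions.

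The gene with the smallest p was Serpina3n, an acute-phase inhibitor of serine proteases that reactive astrocytes make (chromosome 12, 104406729 to 104414329, GRCm38). It had 136, 139 and 153 CPM in APOE4, against 19.3, 21.4 and 22.7 CPM in APOE3. The lowest APOE4 mouse was thus far above the highest APOE3 mouse (log2 fold change 2.74, SE 0.06, adjusted p = 1.57e-19), and the change was 2.76 within females and 2.73 within males. APOE2 mice had 19.4, 21.3 and 25.5 CPM, below every APOE4 mouse. In whole tissue, more cells that express a gene and more RNA per cell cannot be told apart, here and in all results below.

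Of 23 listed genes of the Serpina3 cluster, 7 passed the filter on low counts and 6 of these rose, against 0.429% of all genes tested. Serpina3f, Serpina3m, Serpina3k and Serpina3c passed the filter only through their APOE4 reads, so that the count is largely set by the filter. Members that are nearly silent in APOE3 showed the largest changes of the whole comparison. Serpina3f had 4.22, 4.63 and 5.08 CPM in APOE4, against 0, 0.0199 and 0.0220 CPM in APOE3. In reads this was 1420 over the APOE4 group and 4 over the APOE3 group, a ratio of 331 (exact 95% interval 129 to 1220, counting error only). Serpina3m had 3.63, 3.83 and 4.73 CPM in APOE4 and 0, 0.0215 and 0.0423 CPM in APOE3. Serpina3k had no read in APOE3 and was at least 61.8-fold higher in APOE4 taking 3 reads for the whole APOE3 group as the floor. Reads of Serpina3m and Serpina3k are uncertain, since the annotated genes overlap on the same strand and are 90.2% identical. Serpina3c, at 0.346, 0.392 and 0.503 CPM in APOE4, against 0.0635, 0.126 and 0.198 CPM in APOE3, and Serpina3g, at 0.965, 1.02 and 1.33 CPM in APOE4, against 0.456, 0.521 and 0.816 CPM in APOE3, rose by smaller factors (log2 fold changes 1.69 and 0.84). The call of Serpina3g was lost without APOE3 replicate 2, 3, 4 or 5 (adjusted p from 0.0515 to 0.0607).

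The bases before the start of a few of these genes are shown because the genes lie side by side and moved together. The windows are the 250 bases upstream in the RefSeq table (GRCm38.p6), all on the plus strand of chromosome 12, and were found for 102 of the 146 called genes. Capitals mark the letters TTCNNNGAA, the core of sites bound by STAT factors, which reads the same on both strands. Of 27025 genes with a window, 8.13% hold it, as do 2 of the 4 called Serpina3 genes with a window. The match begins 121 bases before the start in Serpina3f and 33 bases before it in Serpina3g, and Serpina3n has none. The window of Serpina3n is chr12:104406458-104406707, that of Serpina3f chr12:104214294-104214543 and that of Serpina3g chr12:104235897-104236146.
Serpina3n: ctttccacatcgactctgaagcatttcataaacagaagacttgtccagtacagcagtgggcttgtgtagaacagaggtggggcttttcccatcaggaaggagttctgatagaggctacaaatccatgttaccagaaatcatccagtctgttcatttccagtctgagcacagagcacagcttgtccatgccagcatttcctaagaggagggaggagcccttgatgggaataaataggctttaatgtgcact
Serpina3f: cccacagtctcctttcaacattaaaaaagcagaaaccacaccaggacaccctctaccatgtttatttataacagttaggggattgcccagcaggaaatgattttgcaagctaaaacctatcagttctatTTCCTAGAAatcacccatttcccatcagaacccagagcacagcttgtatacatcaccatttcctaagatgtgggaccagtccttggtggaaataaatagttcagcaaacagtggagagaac
Serpina3g: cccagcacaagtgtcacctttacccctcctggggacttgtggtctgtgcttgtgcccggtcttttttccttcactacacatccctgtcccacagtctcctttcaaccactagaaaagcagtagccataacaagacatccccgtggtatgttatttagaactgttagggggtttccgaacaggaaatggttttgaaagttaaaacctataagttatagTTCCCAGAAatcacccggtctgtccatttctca

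Serpina3n was accompanied by little else from the list of reactive astrocyte genes. Of its 35 members tested, 2 rose (0.429% of all genes tested did), Serpina3n itself among them. None fell, and the median log2 fold change was 0.03. Amigo2, an adhesion molecule, was the other, at 17.8, 18.7 and 22.2 CPM in APOE4, against 16.1, 16.4 and 17.9 CPM in APOE3 (log2 fold change 0.23, adjusted p = 0.0478). Those groups overlapped, and the call was lost under 21 of 27 alternatives, leaving out APOE4 replicate 1, 3, 4, 5 or 6, APOE3 replicate 2 to 6 or APOE2 replicate 1, 2, 4 or 6 among them (adjusted p up to 0.149). Stat3, the factor that switches on acute-phase genes, averaged 63.9 ± 3.06 CPM in APOE4, against 61.3 ± 2.05 CPM in APOE3 (SD, n = 6 each; edgeR adjusted p = 0.74). The complement gene C3 averaged 2.21 ± 0.456 CPM in APOE4, against 2.53 ± 0.619 CPM in APOE3 (edgeR adjusted p = 0.828). Of 20 markers of astrocyte identity none was called by edgeR, DESeq2 or limma voom (0 with an unadjusted p under 0.05), 10 lay above 0 and 10 below, and their summed level ran from 7340 to 8260 CPM in APOE4 and from 7500 to 8200 CPM in APOE3.

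The largest decrease of an abundant gene was that of Wdfy1, an adaptor with a FYVE domain that binds the endosomal lipid phosphatidylinositol 3-phosphate and acts in Toll-like receptor signalling (chromosome 1, 79702262 to 79776143). It had 18.2, 20.2 and 22.3 CPM in APOE4, against 60.3, 61.9 and 65.4 CPM in APOE3. No APOE4 mouse reached the APOE3 range, and the log2 fold change of -1.63 (SE 0.05, adjusted p = 2.64e-16) had the same size in females and in males. Its paralog Wdfy2 averaged 39.3 ± 2.01 CPM in APOE4, against 37.4 ± 1.90 CPM in APOE3 (SD, n = 6 each; edgeR adjusted p = 0.73). Among 40 genes of early endosomes and their phosphoinositides, Wdfy1 was the only one called (0.773% of all genes were) and the median log2 fold change was 0.0044. One subunit of the WASH complex, which builds actin on endosomes for retromer cargo, did rise: Washc2 had 150, 154 and 156 CPM in APOE4 and 127, 129 and 133 CPM in APOE3. Its groups did not overlap (log2 fold change 0.25, SE 0.03, adjusted p = 5.06e-05), while the other 6 subunits and partners tested were not called and lay between -0.01 and 0.08 on the log2 scale. Washc2 lies in a window of chromosome 6 that holds other called genes, as given below.

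**Figure D2:**
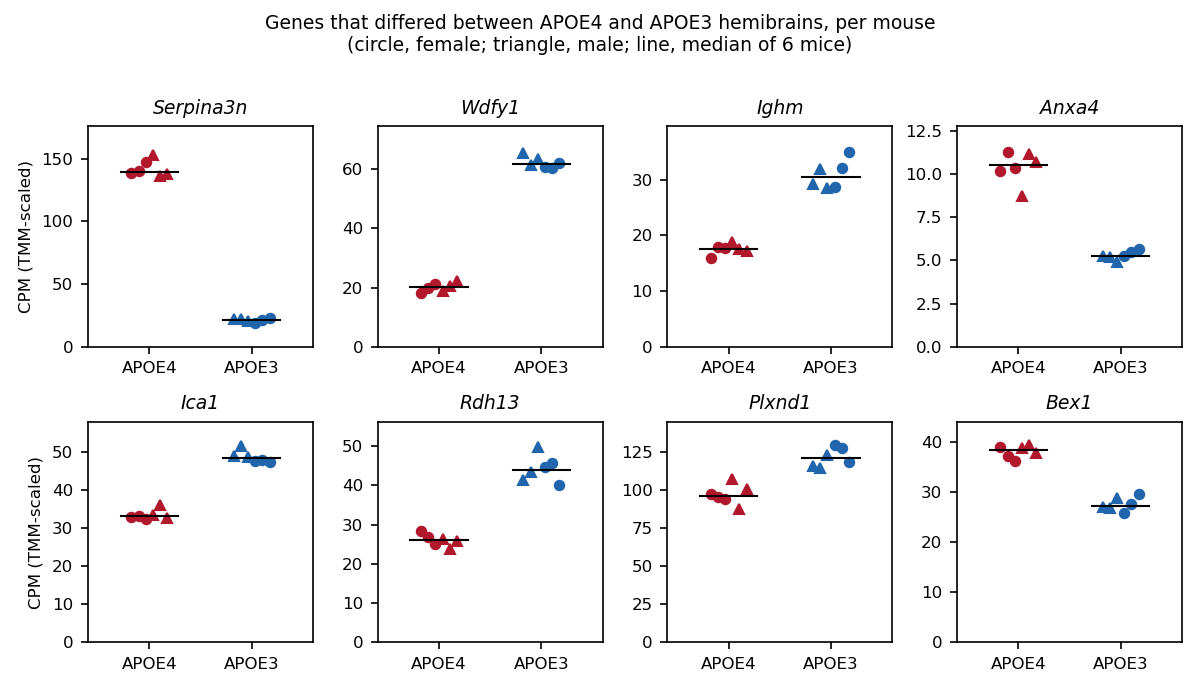
CPM after TMM scaling (vertical axes, from 0) of 8 called genes in each of the 6 APOE4 mice (left in each panel) and the 6 APOE3 mice (right). Circles are females, triangles are males and lines are group medians. In all 8 panels the groups do not overlap.

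A group of genes for amino acid supply rose together by small amounts. ATF4 is the transcription factor that cells translate when eIF2alpha is phosphorylated, as in amino acid shortage or endoplasmic reticulum stress, and it switches on amino acid transporters, synthetic enzymes and tRNA synthetases. Atf4 mRNA (chromosome 15, 80255184 to 80257541) had 124, 129 and 142 CPM in APOE4, against 93.6, 102 and 104 CPM in APOE3. The groups did not overlap (log2 fold change 0.39, SE 0.05, adjusted p = 4.09e-05), and the difference was 0.42 within females and 0.35 within males. Mthfd2, the mitochondrial folate enzyme of one-carbon metabolism, had 8.09, 8.47 and 9.28 CPM in APOE4 and 5.91, 6.14 and 6.64 CPM in APOE3 (log2 fold change 0.46, SE 0.06, adjusted p = 2.93e-05). Slc7a3, a carrier of cationic amino acids, had 14.6, 15 and 16.6 CPM in APOE4 and 11.7, 11.8 and 12.2 CPM in APOE3 (log2 fold change 0.36, SE 0.06, adjusted p = 0.000545). For both genes every APOE4 mouse lay above every APOE3 mouse.

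Smaller rises were called for the cysteinyl-tRNA synthetase Cars, the neutral amino acid carrier Slc1a4 and the asparagine synthetase Asns. Cars had 46.1, 48.1 and 52.7 CPM in APOE4 and 40.8, 42.4 and 43.7 CPM in APOE3 (log2 fold change 0.20, adjusted p = 0.014). Slc1a4 had 76.6, 83.5 and 88.8 CPM in APOE4 and 68.0, 71.9 and 75.6 CPM in APOE3 (log2 fold change 0.21, adjusted p = 0.0203). Asns had 109, 116 and 119 CPM in APOE4 and 95.7, 100.1 and 109 CPM in APOE3 (log2 fold change 0.19, adjusted p = 0.0373). None of these 3 overlapped between groups, but their calls were less stable. That of Cars was lost without APOE3 replicate 2 or 6 (adjusted p 0.0512 and 0.0648) and that of Slc1a4 without APOE4 replicate 2 or 3 or APOE3 replicate 2, 3, 4 or 6 (adjusted p up to 0.0883). That of Asns was lost without APOE4 replicate 1, 2, 3, 4 or 6, APOE3 replicate 1 to 5 or APOE2 replicate 4 (adjusted p up to 0.133). It was also lost with DESeq2 size factors in place of TMM (edgeR adjusted p = 0.0529). All 3 calls were lost among the 10 mice with e or f as the last letter of the title.

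Over the whole list of 46 ATF4-related genes tested, out of 48 listed, 6 rose (0.429% of all genes did) and none fell. Log2 fold changes were positive for 42 of the 46, with a median of 0.11, against 52% positive and a median of 0.0042 over all genes tested. The list was drawn up after the called genes were seen, so its counts are a description. Members that missed the threshold included the factor Atf5, at 17.6 ± 1.39 CPM in APOE4, against 14.6 ± 0.945 CPM in APOE3, and the glutathione-degrading enzyme Chac1, at 7.37 ± 1.27 CPM in APOE4, against 5.74 ± 0.549 CPM in APOE3 (SD, n = 6 each; edgeR adjusted p 0.0712 and 0.101, both called by DESeq2). Ddit3, the pro-apoptotic factor CHOP that follows stronger stress, went the other way, at 18.1 ± 0.892 CPM in APOE4, against 20.3 ± 0.796 CPM in APOE3 (edgeR adjusted p = 0.197). The wider list of unfolded protein response genes held 26 members, of which Atf4 and Asns were the 2 called (0.773% of all genes were). Of 22 heat shock chaperones 20 had positive values, and none was called by edgeR, DESeq2 or limma voom (1 with an unadjusted p under 0.05). Asns and Mthfd2 lie in windows of chromosome 6 that hold many other called genes, as given below, while Atf4, Slc7a3, Slc1a4 and Cars do not. Of 20 cytosolic tRNA synthetases tested, Cars rose and the histidyl enzyme Hars fell (0.773% of all genes were called). Positive values were found for 18 of the 20, with a median of 0.04. An unadjusted p under 0.05 was found for 7 higher and 1 lower (893 and 765 over all 18891 genes). DESeq2 called Cars, Hars and Yars, against 272 of all genes. Hars had 82.3, 84.6 and 86.1 CPM in APOE4, against 90, 95.9 and 99.7 CPM in APOE3 (log2 fold change -0.18, adjusted p = 0.0226). The call of Hars was lost without APOE4 replicate 3 or 6 or APOE3 replicate 2, 5 or 6 or among the same 10 mice (adjusted p up to 0.0674).

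ATF4 acts through composite C/EBP-ATF elements, searched here as the letters TGATGNAAN on both strands of the 250 upstream bases. The element was found in 12 of the 39 listed genes with a window (30.8%) and in 3.89% of all 27025 genes. Of the 102 called genes with a window, 2 held it (1.96%). The share in the list describes how the list was drawn up and not the genes that changed. Of the 4 called members with a window, 1 held it, namely Asns. Its stretch is shown with those of 4 members that had positive values and were not called, the proline enzyme Pycr1, the glycyl-tRNA synthetase Gars, the stress factor Atf3 and Chac1. Capitals mark the element, which in Chac1, Gars and Atf3 reads on the opposite strand. The stretches are chr6:7693210-7693252 (minus strand) for Asns, chr2:119351028-119351076 (plus) for Chac1, chr11:120643823-120643871 (minus) for Pycr1, chr6:55037950-55037998 (plus) for Gars and chr1:191183416-191183464 (minus) for Atf3, from RefSeq on GRCm38.p6.
Asns: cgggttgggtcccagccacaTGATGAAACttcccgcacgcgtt
Chac1: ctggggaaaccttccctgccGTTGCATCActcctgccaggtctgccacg
Pycr1: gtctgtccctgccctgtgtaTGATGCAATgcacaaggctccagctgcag
Gars: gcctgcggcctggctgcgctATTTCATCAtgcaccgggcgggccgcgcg
Atf3: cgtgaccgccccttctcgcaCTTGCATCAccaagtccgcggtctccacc

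**Figure D3:**
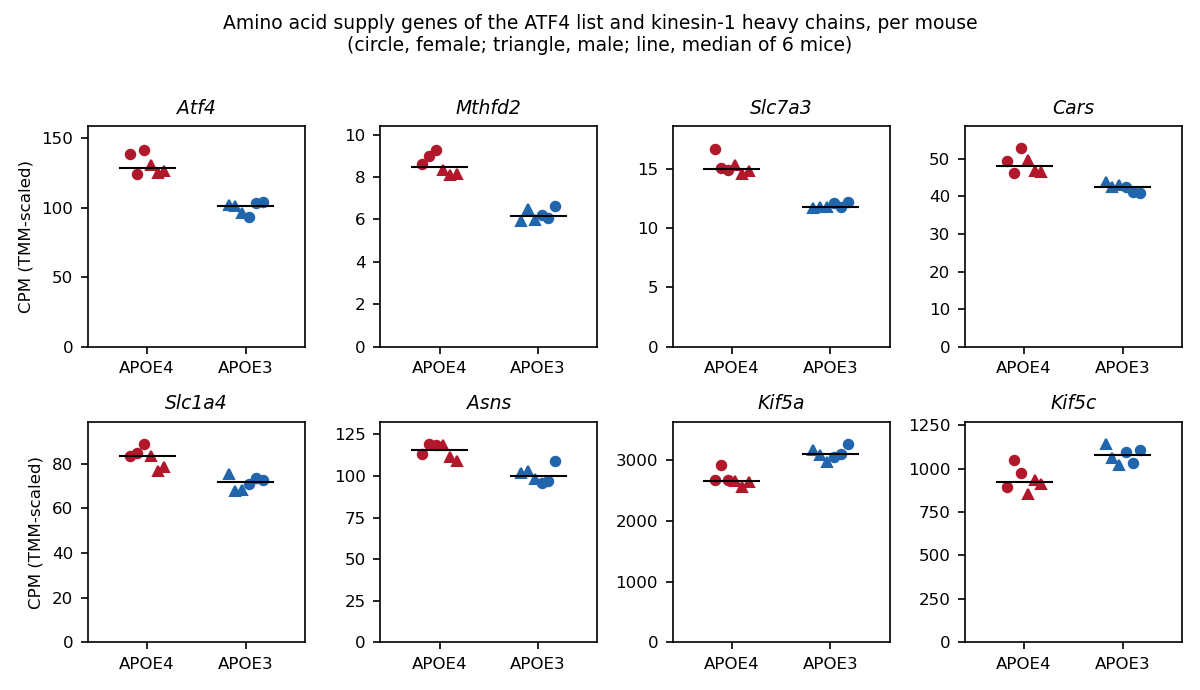
CPM after TMM scaling (vertical axes, from 0) of the 6 called genes of the ATF4 list and of the kinesin-1 heavy chains Kif5a and Kif5c in each APOE4 mouse (left in each panel) and each APOE3 mouse (right). Circles are females, triangles are males and lines are group medians. The 6 genes of the ATF4 list lie higher in APOE4 and the kinesins lower, with overlap between groups for Kif5c.

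Of the genes for axonal transport by kinesin-1, 3 fell slightly. Kinesin-1 carries vesicles, mitochondria and lysosomes toward axon ends, and Arl8 GTPases couple lysosomes to it. Kif5a, the neuronal heavy chain, was among the most abundant called genes at 2556, 2659 and 2923 CPM in APOE4, against 2973, 3095 and 3261 CPM in APOE3. The groups did not overlap (log2 fold change -0.21, SE 0.04, adjusted p = 0.00458). A second heavy chain, Kif5c, had 856, 923 and 1050 CPM in APOE4 and 1022, 1077 and 1139 CPM in APOE3, with overlapping groups (log2 fold change -0.20, adjusted p = 0.0203). Arl8a had 157, 167 and 180 CPM in APOE4 and 180, 187 and 195 CPM in APOE3, also with overlap (log2 fold change -0.17, adjusted p = 0.0446). Among 17 kinesin-1 and Arl8 pathway genes tested, these 3 were called lower (0.344% of all genes were) and 14 had negative values, with a median of -0.06. This list was also drawn up after the calls were seen. The calls of Kif5c were lost without APOE4 replicate 1, 4 or 6 or APOE3 replicate 1 or 4 (adjusted p up to 0.0665), and those of Arl8a without APOE4 replicate 1, 2, 3, 5 or 6, any of the 6 APOE3 replicates or APOE2 replicate 2, with upper-quartile factors, with no filter or among the 10 mice chosen by title letter (adjusted p up to 0.129). Markers of neurons summed to 16200 to 16900 CPM in APOE4 and 16700 to 17200 CPM in APOE3, with none of 20 called by edgeR, DESeq2 or limma voom (3 with an unadjusted p under 0.05), and the part of this difference in the kinesin values was not tested.

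Other abundant genes changed in a narrow range. Bex1 and Bex2, small X-linked adaptor proteins of neurons, both rose. Bex1 had 36.3, 38.4 and 39.4 CPM in APOE4 and 25.9, 27.4 and 29.7 CPM in APOE3 (log2 fold change 0.46, SE 0.04, adjusted p = 9.49e-08). Bex2 had 168, 173 and 182 CPM in APOE4 and 140, 141 and 151 CPM in APOE3 (log2 fold change 0.28, SE 0.04, adjusted p = 0.000125). Their transcripts are 92.3% identical over 452 bases and reads can be split between them, but both moved the same way and did not overlap between groups. Of the 10 members of the Bex and Tceal family tested, the other 8 were not called and 7 of these had positive values. Over all genes tested 0.773% were called. Nudt3, a hydrolase of diphosphoinositol phosphates and of RNA caps, had 250, 259 and 271 CPM in APOE4 and 203, 210 and 215 CPM in APOE3 (log2 fold change 0.31, SE 0.04, adjusted p = 1.20e-05). Thnsl1, a threonine synthase-like protein, had 20.8, 24.2 and 28.5 CPM in APOE4 and 15.4, 17.0 and 18.8 CPM in APOE3 (log2 fold change 0.53, SE 0.07, adjusted p = 2.95e-05). Neither overlapped between groups, and for Thnsl1 the APOE2 mice, at 24.4 to 29.2 CPM, also lay above every APOE3 mouse.

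In the BCL2 family, whose members decide whether mitochondria release cytochrome c, 2 of 16 genes tested rose and 1 fell (0.773% of all genes were called). This list and that of Sm proteins were drawn up after the calls were seen. Pmaip1, the BH3-only protein NOXA, had 2.62, 3.32 and 3.94 CPM in APOE4 and 1.67, 2.16 and 2.43 CPM in APOE3 (log2 fold change 0.67, SE 0.10, adjusted p = 0.00022). Bok, a pore-forming member, had 35.5, 37.6 and 41.3 CPM in APOE4 and 27.9, 30.5 and 32.0 CPM in APOE3 (log2 fold change 0.33, SE 0.06, adjusted p = 0.00561). Bid, which links death receptors to mitochondria, had 8.15, 8.68 and 10.4 CPM in APOE4 and 10.6, 11.6 and 12.5 CPM in APOE3 (log2 fold change -0.36, SE 0.07, adjusted p = 0.00376). All 3 were without overlap, and the other 13 members tested were not called, with a family median of 0.01. Among 8 Sm core proteins of the spliceosome, Snrpd3 and Snrpd1 rose by 0.22 and 0.32 on the log2 scale (adjusted p 0.0171 and 0.0275; 0.429% of all genes were called higher). The call of Snrpd3 was lost without APOE4 replicate 2 or 6 or APOE3 replicate 2, 4 or 5 (adjusted p up to 0.0639), and that of Snrpd1 without APOE4 replicate 2, 5 or 6 or APOE3 replicate 2, 3, 4 or 5 (adjusted p up to 0.101). Among the 10 mice named above by title letter their adjusted p was 0.0625 and 0.0764.

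Immune genes changed without a common direction. Ighg2c, the constant region of an immunoglobulin G subclass, had 0.0379, 0.0794 and 0.132 CPM in APOE4 and 4.08, 4.34 and 4.94 CPM in APOE3. This was 25 reads over the APOE4 group and 1263 over the APOE3 group, a ratio of 0.0184 (exact 95% interval 0.0119 to 0.0274, counting error only). Ighm, the constant region of immunoglobulin M, had 15.9, 17.6 and 18.8 CPM in APOE4 and 28.6, 30.5 and 35.1 CPM in APOE3 (log2 fold change -0.82, SE 0.09, adjusted p = 9.04e-06). The other 10 tested genes of the B cell list, which held 23, were not called and all 10 had positive values. Over all genes tested, 0.773% were called and 52% had positive values. Summed over the 23 listed genes, B cell and immunoglobulin transcripts ran from 98.9 to 115 CPM in APOE4 and from 113 to 125 CPM in APOE3. Aim2, a cytosolic DNA sensor of the inflammasome, rose, with 2.54, 3.50 and 4.13 CPM in APOE4 and 1.48, 1.80 and 2.10 CPM in APOE3 (log2 fold change 0.95, SE 0.12, adjusted p = 2.42e-05). Paired receptors of the leukocyte receptor complex on chromosome 7 went both ways. Oscar, an activating receptor, had 1.95, 2.61 and 2.88 CPM in APOE4 and 0.110, 0.142 and 0.228 CPM in APOE3, and Lilra5 had 0.154, 0.392 and 0.450 CPM in APOE4 and 0.0197, 0.0985 and 0.251 CPM in APOE3. Pirb, an inhibitory receptor, fell to 0.336, 0.396 and 0.454 CPM in APOE4, against 0.799, 0.927 and 1.05 CPM in APOE3, and its reads are uncertain because 7 copies of at least 90% identity lie nearby. Oscar and Pirb did not overlap between groups and Lilra5 did (log2 fold changes 3.95, -1.20 and 1.73).

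The lists of genes of resting and of disease-associated microglia, the resident phagocytes of the brain, gave no called gene in edgeR. Of 28 genes of resting microglia tested, 3 had an unadjusted p under 0.05, DESeq2 called 1, Tyrobp, and limma voom called 0. Of the 28, 23 had negative values, with a median log2 fold change of -0.06. Tyrobp, the signalling adaptor of TREM2, had 13.2, 13.9 and 14.8 CPM in APOE4 and 15.3, 16.3 and 19.1 CPM in APOE3. These values did not overlap, yet the adjusted p was 0.0585 (log2 fold change -0.27, SE 0.07). C1qa and Fcrls, the next by p, had log2 fold changes of -0.16 and -0.17 with overlap (adjusted p 0.354 and 0.382). The summed microglial level ran from 1210 to 1340 CPM in APOE4 and from 1230 to 1410 CPM in APOE3. None of 27 genes of disease-associated microglia was called by edgeR, DESeq2 or limma voom, 0 had an unadjusted p under 0.05, and 18 had positive values. Of 42 interferon response genes none was called by edgeR, 6 had an unadjusted p under 0.05, and 31 had positive values, with a median of 0.08. DESeq2 called 3 of them, which were also the 3 with the smallest p in edgeR, Trim30a, Ifi27l2a and Bst2, with log2 fold changes of 0.40, 0.71 and 0.41 (adjusted p 0.0871, 0.102 and 0.132).

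Myelin genes of oligodendrocytes stood slightly higher in APOE4 as a list, without a single rise passing the threshold. Of 26 members, 25 had positive values, 10 of them with an unadjusted p under 0.05, and the median log2 fold change was 0.16. Over all 18891 genes tested, 52% had positive values, 893 were higher with an unadjusted p under 0.05 and 0.773% were called. The summed level of the list, with 6810, 7870 and 8360 CPM in APOE4 and 6330, 6900 and 7720 CPM in APOE3, overlapped between groups. The exception was the adhesion protein Ninj2, which fell to 0.663, 0.923 and 1.18 CPM in APOE4, against 1.78, 2.19 and 2.56 CPM in APOE3, with no overlap (log2 fold change -1.25, SE 0.12, adjusted p = 5.10e-07). Choroid plexus epithelium, which secretes cerebrospinal fluid, behaved alike in its list values, with 28 of 30 genes positive and a median of 0.15. There Tmem72, a membrane protein of that epithelium, rose alone, with 9.75, 15.8 and 21.1 CPM in APOE4 and 4.81, 5.83 and 9.22 CPM in APOE3 (log2 fold change 1.35, SE 0.24, adjusted p = 0.00762). Among the mice of those title letters alone its adjusted p was 0.0653. Tmem72 also lies in a window of chromosome 6 with other called genes, as given below. Choroid plexus transcripts summed to 1060 to 1600 CPM in APOE4 and 1150 to 1540 CPM in APOE3. How much choroid plexus or white matter each hemibrain carried was not measured, and its part in these list values was not tested. Pituitary hormones reached 175 CPM in summed level in 1 APOE4 mouse and 29.6 CPM in APOE3.

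**Figure D4:**
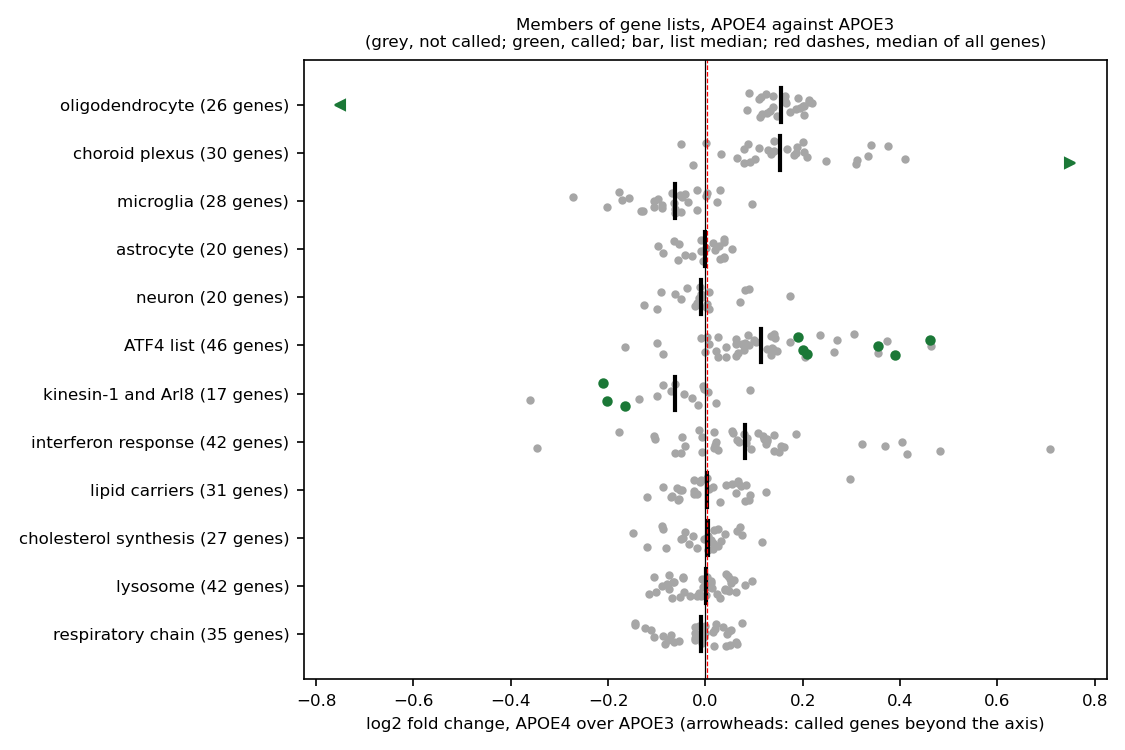
Log2 fold change of APOE4 over APOE3 (horizontal axis) for each tested member of 12 gene lists (rows). Grey points were not called, green points were called, arrowheads are Ninj2 (left) and Tmem72 (right), which lie beyond the axis, black bars are list medians and the dashed line is the median of all genes. Oligodendrocyte, choroid plexus and ATF4 genes lie mostly right of 0, and microglial and kinesin genes mostly left of it.

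Lipid handling, the known task of apolipoprotein E, showed no called gene in these lists. Of 31 genes of lipid carriers, receptors and efflux, 0 were called (0 with an unadjusted p under 0.05) and the median log2 fold change was 0.00. Of 27 cholesterol synthesis genes none was called and 1 had an unadjusted p under 0.05. Lysosomal genes (0 of 42 called, 2 with an unadjusted p under 0.05), exosome genes (0 of 37, 3 unadjusted) and genes of amyloid precursor processing and tau (0 of 29, 2 unadjusted) had medians between 0.00 and 0.01. DESeq2 and limma voom, run on the same counts, also called 0 genes in each of these 5 lists. Outside these lists, and chosen for mention after its value was seen, the sphingosine phosphate phosphatase Sgpp2 fell by 0.20 on the log2 scale with overlapping groups (adjusted p = 0.0171), and its call was lost without APOE4 replicate 1 or APOE3 replicate 4 (adjusted p 0.0539 and 0.0561), with no sex term (0.0678) and among the 10 mice chosen by title letter (0.0749). In the simulated data, with changes planted in genes drawn from all those tested, 36% of 1.2-fold and 82% of 1.5-fold changes were called. Each simulated gene had the smaller of 2 estimates of its spread, from fits with and without genotype, so these rates may be too high. The rate for the genes of these lists alone was not measured, so small changes in them may have been missed. Over all genes tested the smallest called log2 fold change was 0.16 in absolute size.

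Genes of the respiratory chain gave no call by edgeR, DESeq2 or limma voom among 35 subunits listed, with 4 at an unadjusted p under 0.05, 22 negative values and a median of -0.01. Outside that list 3 small mitochondrial proteins were called lower, chosen for mention after their values were seen. They were the cytochrome oxidase subunit Cox8a, the ATP synthase subunit Atp5j2 and the complex III assembly factor Uqcc2, with log2 fold changes of -0.21, -0.23 and -0.23. Their calls were not stable, since 10 or 11 of the 18 fits that left out a library lost each of them (adjusted p up to 0.128). The 7 mitochondrially encoded genes tested had positive values and 0 were called (0 with an unadjusted p under 0.05, 0 by DESeq2 or limma voom), with mitochondrial reads at 3.21% to 4.44% of counts in APOE4 and 3.35% to 3.83% in APOE3.

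Several further large changes concerned transcripts of low abundance. Crb1, a polarity protein of retina and glia, had 3.34, 3.76 and 3.94 CPM in APOE4 and 0.928, 1.08 and 1.35 CPM in APOE3 (log2 fold change 1.73, SE 0.13, adjusted p = 7.62e-09). Mab21l1, a developmental regulator of eye and brain, had 3.07, 3.48 and 4.05 CPM in APOE4 and 1.78, 1.98 and 2.67 CPM in APOE3 (log2 fold change 0.77). Dctd, the deaminase that makes deoxyuridylate, had 4.49, 4.83 and 5.56 CPM in APOE4 and 7.56, 8.10 and 8.51 CPM in APOE3 (log2 fold change -0.70). Those 3 did not overlap between groups, nor did Trim71, an RNA-binding ubiquitin ligase of stem cells (0.76), Fank1, a testis ankyrin protein (-0.70), or the villin-like gene Vill (-0.49). For Fank1 the APOE2 mice, at 2.8 to 3.5 CPM, also lay below every APOE3 mouse. Trim71 lost its call among those 10 mice (adjusted p = 0.0681), as did Bid above (0.0516). Erdr1, a gene of the pseudoautosomal region that had no single position here, had 3.39, 3.84 and 7.03 CPM in APOE4 and 0.0635, 0.720 and 1.77 CPM in APOE3. Mice varied widely, without overlap (log2 fold change 2.74, SE 0.44, adjusted p = 0.0037), and the call did not survive the 12 compared libraries alone (adjusted p = 0.0625), the 10 mice chosen by title letter (0.135) or the removal of APOE2 replicate 4 (0.0679). Trmt61b, a methyltransferase of mitochondrial tRNA, was uniform in APOE4 at 7.47, 7.81 and 8.28 CPM and split in APOE3 at 7.47, 13.7 and 18.3 CPM. Of the APOE3 mice, 3 females and 1 male had 13.3 to 18.3 CPM and 2 males 7.47 and 8.07 CPM (log2 fold change -0.71, adjusted p = 0.0231). Its call was lost without APOE4 replicate 1, 2 or 3 or APOE3 replicate 3, 4 or 6 (adjusted p up to 0.0737). It was also lost with no filter on low counts (0.0935), with no sex term (0.0533), in the 12 compared libraries alone (0.12) and among the 10 mice chosen by title letter (0.314).

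The called genes were clustered along the chromosomes. Chromosome 6 had 26 of 957 tested genes called (2.72%), chromosome 7 had 27 of 1493 (1.81%) and chromosome 12 had 10 of 626 (1.6%), against 0.773% over all genes. Chromosome 16 had none of 522. In windows of 10 Mb, 7 of the 273 windows with tested genes held at least 4 called genes, and together these held 56 of the 140 called genes with a position (40%) and 3.58% of the tested ones. The most crowded were 0 to 10 Mb of chromosome 7, with 15 of 93 genes, 30 to 40 Mb of chromosome 7, with 9 of 110, and 0 to 10 Mb of chromosome 6, with 8 of 39. Between both chromosome 7 windows, from 10 to 30 Mb, lies the Apoe locus itself, and none of the 122 and 153 genes tested in its 2 windows was called. Genes of a window did not share a direction, except in the Serpina3 window, where all 6 rose.

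**Figure D5:**
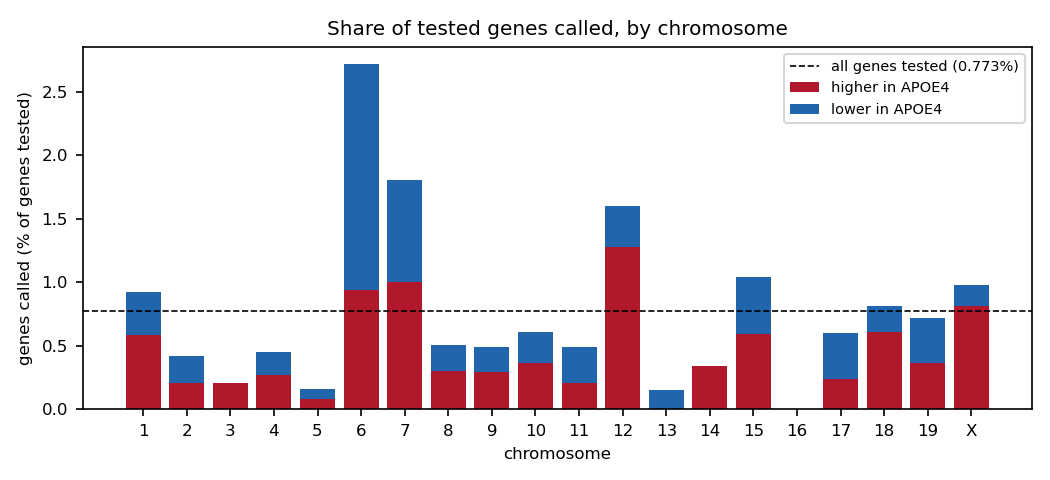
Genes called as a percentage of the genes tested on each chromosome (bars, from 0), split into genes higher (red) and lower (blue) in APOE4. The dashed line is the share over all genes tested, 0.773%. Chromosomes 6, 7 and 12 stand above the others.

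At the start of chromosome 7, beside the receptors above, the strongest rise was that of Eps8l1, an actin regulator, with 6.21, 8.54 and 17.1 CPM in APOE4 and 0.544, 0.705 and 0.822 CPM in APOE3. The antisense gene Gm15494, which overlaps Eps8l1, fell (log2 fold change -2.61, against 3.80 for Eps8l1), and although the library kit marks strand, per the labels, whether the counting used it is not given, so the 2 cannot be told apart with certainty. Ptprh, a receptor phosphatase, had 1.92, 2.25 and 2.71 CPM in APOE4 and 0.0882, 0.275 and 0.365 CPM in APOE3. The channel-like gene Tmc4 and the troponin Tnnt1 rose as well (1.31 and 0.74), and so did Gm15510, Gm45133 and, by 0.25, Mboat7, which attaches arachidonic acid to phosphatidylinositol. Mboat7 had 171, 189 and 204 CPM in APOE4 and 155, 158 and 165 CPM in APOE3, without overlap. Rdh13, a mitochondrial retinol dehydrogenase, fell to 23.8, 26.0 and 28.4 CPM in APOE4, against 40.2, 44.01 and 49.8 CPM in APOE3 (log2 fold change -0.76, SE 0.07, adjusted p = 7.81e-08). The kinase Sbk3, the ribosomal gene Rpl28, whose pseudogenes are up to 100% identical, and 3300002P13Rik fell too (-0.71, -0.43 and -2.65). For Oscar, Tmc4, Mboat7 and 3300002P13Rik the APOE2 medians, 2.26, 6.49, 184 and 0.181 CPM, lay close to those of APOE4, and for Eps8l1, Ptprh and Rdh13, at 0.713, 0.201 and 45.0 CPM, close to those of APOE3.

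In the other window of chromosome 7 the epidermal genes Dmkn and Sbsn fell, with 1.06, 1.18 and 1.57 CPM in APOE4 and 2.41, 2.56 and 3.87 CPM in APOE3 for Dmkn (log2 fold changes -1.18 and -0.83). The dioxygenase-family gene Alkbh6 and the predicted gene Gm12758 fell as well (-0.27 and -4.10). Arhgap33os, the proton pump gene Atp4a, the adhesion gene Kirrel2 and the zinc finger gene Zfp146 rose (3.61, 1.12, 0.55 and 0.19). Kirrel2 was not stable, since its call was lost without APOE4 replicate 1, 3, 4 or 6, APOE3 replicate 2, 4, 5 or 6 or APOE2 replicate 2 or 4 (adjusted p up to 0.118), with no filter on low counts (0.158), in the 12 compared libraries alone (0.114) and among the 10 mice chosen by title letter (0.245). Zfp146 lost its call without APOE4 replicate 2, 5 or 6 or APOE3 replicate 1 to 5, with no filter or among those 10 mice (adjusted p up to 0.0896). Haus5, a subunit of the microtubule-nucleating augmin complex, fell to 0.195, 0.493 and 0.733 CPM in APOE4, against 0.719, 0.951 and 1.09 CPM in APOE3. Its 97.4% identical copy Gm8146 on chromosome 1 went the other way (log2 fold change 4.90), and their summed level was 0.867 CPM in APOE4 and 0.951 CPM in APOE3. The call of Haus5 was also lost without APOE4 replicate 5 or APOE3 replicate 2 or 5 or among those 10 mice (adjusted p up to 0.071).

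Several other predicted genes elsewhere were near copies of genes in or next to these windows. Gm1840 on chromosome 8 had 11.8, 14.8 and 15.5 CPM in APOE4 and 1.19, 1.54 and 1.83 CPM in APOE3 (log2 fold change 3.24). Its 98.6% identical relative is the glycolytic gene Gpi1 on chromosome 7 at 34201330, whose own log2 fold change was -0.06, and their sums were 486 CPM in APOE4 and 494 CPM in APOE3. Gm5815 on chromosome 17 rose by 2.59 and is 98.9% identical to Glcci1 on chromosome 6, which had a log2 fold change of -0.28. These identities hold over the aligned stretch. In all, 27 of the 140 called genes with a transcript shared at least 150 bases of at least 90% identity with another gene, covering at least 50% of the shorter transcript. For several, such as Wdfy1 with at most 161 of 4551 bases, that is a small part of their own transcript.

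On chromosome 6 the gene with the smallest p was the pseudogene Spr-ps1, with 375 reads over the APOE4 group and 9 over the APOE3 group, a ratio of 38.8 (exact 95% interval 20.2 to 85.6, counting error only). Next came Ica1, a membrane-curving protein of secretory vesicles (8630527 to 8778488). It had 32.4, 33.1 and 36.0 CPM in APOE4, against 47.4, 48.3 and 51.7 CPM in APOE3, with no overlap (log2 fold change -0.54, SE 0.04, adjusted p = 1.62e-09). Its neighbours Umad1, a gene with a domain of ESCRT-associated proteins, the lactonase Pon2, the DNA-binding subunit Rpa3 and Mios also fell (-0.50, -0.47, -0.48 and -0.23). Mios belongs to the GATOR2 complex, which passes amino acid signals to mTORC1. Mios lost its call without APOE3 replicate 1 or 4 (adjusted p up to 0.0644) and Rpa3 without APOE4 replicate 1, 2, 3, 4 or 6 or APOE3 replicate 1, 2, 4 or 5 (adjusted p up to 0.0949). In the window from 80 to 90 Mb, Anxa4, an annexin that binds membranes in response to calcium, had 8.74, 10.5 and 11.3 CPM in APOE4 and 4.88, 5.25 and 5.68 CPM in APOE3 (log2 fold change 0.98, SE 0.07, adjusted p = 6.44e-09). The prenylcysteine oxidase Pcyox1, the acetyltransferase-family gene Nat8f5 and the iron-sulfur carrier Nfu1 fell there (-0.23, -1.96 and -0.21), and the call of Nfu1 was lost without APOE4 replicate 2 or 6 or APOE3 replicate 2, 3 or 6 (adjusted p up to 0.086), with no filter (0.0542), in the 12 compared libraries alone (0.0511) and among the 10 mice chosen by title letter (0.189).

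From 110 to 120 Mb of chromosome 6, Plxnd1, a semaphorin receptor of vessels and neurons, had 87.4, 96.4 and 108 CPM in APOE4 and 114, 121 and 130 CPM in APOE3 (log2 fold change -0.33, SE 0.06, adjusted p = 0.00183). The cilium transport gene Ift122 and the calcium-binding family gene Efcab12 fell with it (-0.25 and -0.59). Tmcc1, a protein of the endoplasmic reticulum that takes part in endosome fission, rose to 100, 107 and 112 CPM in APOE4, against 84.0, 87.9 and 89.8 CPM in APOE3 (log2 fold change 0.29, SE 0.04, adjusted p = 4.28e-05). Rassf4 rose by 0.30 and lost its call without APOE4 replicate 2 or 6 or APOE3 replicate 3, 4, 5 or 6 or among those 10 mice (adjusted p up to 0.08). Washc2 and Tmem72, described above, lie in this window too, where 7 of 98 tested genes were called. On chromosome 12, beside the immunoglobulin genes, Ptprn2, a phosphatase-like protein of dense-core vesicles, had 338, 372 and 386 CPM in APOE4 and 312, 318 and 326 CPM in APOE3 (log2 fold change 0.21). Esyt2, a tether of the endoplasmic reticulum to the plasma membrane, rose by 0.23 and lost its call without APOE4 replicate 3, 5 or 6 or any of the 6 APOE3 replicates and under the filter of 1 CPM in 6 libraries (adjusted p up to 0.123).

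Within females 80 genes were called (0.423% of those tested) and within males 67 (0.355%), with 3 mice per group. Without APOE4 replicate 3 or APOE3 replicate 5 the count in females was 51 or 48, and without APOE3 replicate 1 or 3 the count in males was 38 or 37. For 2 genes (0.0106%) the difference between females and males was itself called, against 1287 with an unadjusted p under 0.05. Btg2, an antiproliferative gene induced by activity and DNA damage, showed opposite patterns by sex. In females it had 12.0, 12.9 and 21.4 CPM in the 3 APOE4 mice and 28.7, 42.0 and 45.5 CPM in the 3 APOE3 mice. In males it had 27.7, 35.6 and 36.2 CPM in APOE4 and 12.0, 12.7 and 12.8 CPM in APOE3. Groups did not overlap in either sex, and the female minus male difference in log2 fold change was -2.73 (SE 0.35, adjusted p = 0.0321). Spred2, an inhibitor of Ras signalling, had 88.1, 90.3 and 92.8 CPM in APOE4 females and 69.4, 71.7 and 75.0 CPM in APOE3 females. In males the order was reversed, with 67, 71.4 and 72.5 CPM in APOE4 and 76.3, 86.6 and 87.0 CPM in APOE3 (difference 0.57, SE 0.09, adjusted p = 0.0371). DESeq2 called 36 genes for this difference, and with 1 library left out edgeR called between 0 and 11: 4 without APOE4 replicate 1, 11 without replicate 2, 1 without replicate 6 and none without replicate 3, 4 or 5, and 1 without APOE3 replicate 2 or 3 and none without replicate 1, 4 or 5. Of 19 immediate early genes none was called between genotypes over both sexes by edgeR, DESeq2 or limma voom (0 with an unadjusted p under 0.05).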

How the data were processed

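PolyA RNA libraries of 18 hemibrains were analysed, 6 per genotype with 3 females and 3 males each. The authors deposited raw counts per gene symbol, which were used as deposited. Per the submitters' processing notes, FastQC, Trimmomatic, STAR 2.7.0, featureCounts and DESeq2 were used with GRCm38 (mm10). Not given in the sources used here are the annotation release, the strand setting and the terms of that model. Their deposited table of APOE3 over APOE4, whose sign is opposite to the one used here, holds a mean signal of normalized counts, a log2 fold change with its standard error, a Wald score and p-values, and 20272 genes in it had an adjusted p. Of these, only the adjusted p and the sign were used. Of 52459 rows in the count table, 26 have dates in place of gene names, with 0.304% to 0.322% of the counts of a library, and were left out.

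Counts were tested with edgeR 4.0.16 (quasi-likelihood F test, robust, TMM scaling, filterByExpr) in R 4.3.3 over all 18 libraries, with genotype and sex as terms and Benjamini-Hochberg adjustment over 18891 genes. Unless another tool is named, every adjusted p is from this test. Tests within a sex and of the difference between sexes used 1 mean per genotype and sex. The biological coefficient of variation was 0.0845. The replicate libraries of a genotype differed by more than sampling noise (chi-square per degree of freedom 5.37 to 42.4), so none was counted as a repeat. A replicate number is the mouse's place in accession order and serves as a name. Titles also end in letters that the labels do not explain, and the 10 APOE4 and APOE3 mice with the letters e or f were also tested alone. That fit leaves out a female of each genotype, APOE4 replicate 2 (letter d) and APOE3 replicate 6 (letter g). Among the compared mice e stood only with males and f only with females. In that fit an effect of fewer mice and one of the letters cannot be told apart.

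Alternatives were other scalings, filters on low counts, DESeq2 1.42.0, limma voom 3.58.1, no sex term, the 12 compared libraries alone, stricter thresholds and leaving out each library. On simulated counts with 50 planted genes per fold size, 36% of 1.2-fold, 82% of 1.5-fold, 94% of 2-fold and 100% of 4-fold changes were recovered, with 6 false calls. The simulation gave each gene the smaller of 2 estimates of its spread, so the recovery may be too high for the real data. Positions are from GENCODE mouse release 21 (GRCm38), which matched 18273 tested genes by symbol. Copies were found with blastn 2.17.0.

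The comparison, its gene lists and its tests were chosen with earlier results of these data known. The lists of ATF4 genes, tRNA synthetases, kinesin-1 and Arl8, WASH, BCL2, Sm, Bex and leukocyte receptor genes were drawn up after the called genes were seen. Named genes are the 15 largest increases and decreases among called genes of at least 1 CPM with a gene name, the 10 smallest p among those of at least 20 CPM, called members of the lists or otherwise up to 3 by p, called genes of windows with at least 4, Apoe and sex-linked checks, and genes that differed between sexes. Stat3, C3, Wdfy2, Atf5, Chac1, Ddit3, Pycr1, Gars, Atf3, Sgpp2, Cox8a, Atp5j2, Uqcc2 and the copies Gm1840, Gpi1, Gm5815, Glcci1 and Gm8146 fall outside that rule and were chosen after their values were seen. Some genes are not reported here.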

Additional observations from a re-analysis of the deposited data

Results flagged for a closer look

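For 19 of 214 groups of 6 mice, 1 mouse lay far from the other 5 by Dixon's criterion, which chance meets in about 1 in 20 groups. In APOE4, replicate 4 was far for mouse Apoe reads (54.9 CPM, the others 40 to 44.8), Atp4a (1.64, others 0.978 to 1.2), Lilra5 (0.154, others 0.341 to 0.449), Pycr1 (2.8, others 2.24 to 2.37) and Trim30a (2.49, others 3.1 to 3.45). Replicate 5 was far for Dmkn (1.57 CPM), Gm1840 (11.8 CPM, others 14.2 to 15.5) and Ica1 (36 CPM, others 32.4 to 33.4). Replicate 2 was far for Fank1 (2.5 CPM), Rassf4 (22 CPM) and Kif5a (2920 CPM, others 2560 to 2670, so toward the APOE3 level). Replicate 3 was far for Serpina3g (1.33 CPM) and replicate 1 for Slc7a3 (16.6 CPM).

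In APOE3, replicate 5 was far for Dmkn (3.87 CPM) and Tmem72 (9.22 CPM, others 4.81 to 6.44), replicate 3 for mouse Apoe reads (36.6 CPM) and Gm12758 (1.78 CPM), replicate 2 for Ica1 (51.7 CPM) and replicate 1 for Mab21l1 (2.67 CPM).

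The APOE4 minus APOE3 effect differed between the sexes for Btg2, with -1.33 in females and 1.40 in males on the log2 scale (difference -2.73, edgeR adjusted p = 0.0321), and for Spred2, with 0.33 in females and -0.25 in males (difference 0.57, edgeR adjusted p = 0.0371). In both genes all 3 APOE4 mice of a sex lay on one side of all 3 APOE3 mice of that sex.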

How the results depend on the processing

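DESeq2 called 272 genes, 140 higher and 132 lower in APOE4, and all 146 edgeR calls were among them. Against a fold change of 1.2, 55 genes were called (29 higher, 26 lower), and at an adjusted p under 0.01, 90 (49 higher, 41 lower). With 1 library left out, between 104 (without APOE3 replicate 2) and 162 (without APOE2 replicate 5) genes were called, 54 to 90 of them higher and 49 to 72 lower. Of the 146 calls, 91 were never lost in these fits, and 84 were lost under no alternative other than the stricter thresholds. In these counts a gene that an alternative left untested was not taken as lost. Under the filter of 1 CPM in 6 libraries, which removed scarce genes from the test, 118 of the 146 stayed called. With no filter on low counts the calls were 242 within females, 309 within males and 159 for the difference between sexes, and with DESeq2 129, 139 and 36. With 1 library left out they ran from 48 to 72 within females, 37 to 50 within males and 0 to 11 for the difference, the last a setting chosen after seeing the data. The causes were not tested. Of the named called genes, 19 lost their call in the 10 mice with title letters e or f and 0 with DESeq2, and none changed sign. No paired analysis was possible because the labels give no replicate numbers, and numbers in accession order pair nothing. Depth limits genes under about 1 CPM, where a group holds few reads.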
